A study of Mus musculus with 24 samples.

Results

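Matrix metalloproteases (MMPs), the ADAMTS proteases, the ADAMTS-like (ADAMTSL) proteins and the tissue inhibitors of metalloproteases (TIMPs) were followed in mouse subcutaneous adipose tissue after loss of 1 of 2 adipocyte transcription factors, C/EBPα or PPARγ. Members were the genes whose array symbol starts with Mmp and a digit or with Adamts, or is Timp1, Timp2, Timp3 or Timp4. The array named 46 such genes among its annotated probes, and 38 of them were among the 14544 genes tested, each through its brightest probe, provided that this probe was above background on at least 3 of the 24 arrays. These were 16 of 21 MMPs, 14 of 17 ADAMTS genes, all 4 ADAMTSL genes and all 4 TIMPs. The other 8, Adamts3, Adamts14, Adamts19, Mmp1b, Mmp7, Mmp8, Mmp10 and Mmp20, did not reach that minimum and are not described further by signal. Of the 38, 24 were above background on every array.

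MMPs are zinc-dependent proteases that cut collagens, gelatins, proteoglycans and other matrix proteins, and most are made as inactive precursors that another protease has to cut. ADAMTS proteases are secreted, carry thrombospondin repeats and cut aggrecan, versican and other proteoglycans or act on fibrillin microfibrils, while ADAMTSL proteins share those repeats but lack the protease domain. TIMPs bind and block the active proteases. In adipose tissue these genes are known for their part in remodelling the matrix around adipocytes as the tissue expands or regresses.

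The 24 samples were 8 groups of 3 from C57BL/6J mice, all of them on doxycycline feed, in 4 sets that each held a knockout group and its control littermates. Knockouts labelled Adn-C/EBPα-/- and their controls were sampled after 3 days of doxycycline chow at 10 weeks of age, after 3 days of doxycycline high fat diet (HFD) at 10 weeks, or after 1 month of that diet at 14 weeks. Knockouts labelled Adn-PPARγ-/- and their controls were sampled after 3 days of doxycycline chow at 10 weeks. The labels give neither the Cre driver nor the controls' alleles, and do not say whether replicates were separate animals, so the p-values rest on a spread between arrays that may be only technical. Diet time and age changed together in the 1 month set and cannot be told apart.

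Cebpa itself fell in all 4 comparisons, with a log2 change of -1.0 ± 0.14 (SE) in the chow C/EBPα set, -2.08 ± 0.14 after 3 days and -3.48 ± 0.14 after 1 month of HFD, and -1.38 ± 0.14 in the PPARγ set. The size of the Cebpa fall thus differed between sets along with deleted factor, diet and time, and these cannot be told apart. Pparg was in turn lower without C/EBPα on HFD, by -0.43 ± 0.11 after 3 days (limma adjusted p = 0.0442) and -0.54 ± 0.11 after 1 month (0.00152), and it was not called on chow (-0.23 ± 0.11, 0.318). The array's Pparg probe was higher in the arrays labelled Adn-PPARγ-/- (13.57 ± 0.10 against 12.46 ± 0.03, SD, n = 3). The deleted part of that gene is not given in the sources used here, so this probe does not check the label, and PPARγ knockout below means the arrays labelled so. Of 10 adipocyte markers listed, 9 were tested and none of them was below background throughout a set, and Cfd was not tested. Arrays of a set were quantile-normalized together by the authors and each set separately, so levels are compared within a set, and only knockout effects are compared between sets. In bulk tissue, fewer cells of a type and less RNA per cell cannot be told apart.

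Levels below are log2 of the background-corrected signal after adding 16, a scale that starts at 4 and understates the change of dim probes. Probes at background read somewhat above 4: Mmp7 and Adamts14, never above background, averaged 4.24 and 4.31. Fold changes are knockout minus control on that scale ± SE from a limma fit of all 24 arrays, with p-values adjusted by Benjamini-Hochberg over all 14544 genes, and a gene was called at an adjusted p under 0.05. Fold sizes of dim members depend on the background step: of 45 member results recomputed under alternatives, 22 moved by over 1.5 times on the log2 scale when no background was removed and 11 when 50 was added in place of 16, all toward 0. Values without background removal stand beside the results they touch.

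In the chow C/EBPα set, 1 of 38 members was called, Adamts17, which was lower, and 0 were called higher. Over all genes, 0.550% were called higher and 0.529% lower. The control and knockout arrays did not overlap for 7 members on the higher side and 4 on the lower side, against 17.9% of all genes in either direction. An unadjusted p under 0.05 was reached by 6 of the 38 members. The share of all genes at that level was not counted, so such numbers, here and below, have no background beside them.

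In the PPARγ set, 7 members rose and 1 fell, against 4.72% of all genes called higher and 4.72% called lower. The rises were in Adamtsl2, Adamts15, Timp1, Adamts6, Mmp3, Mmp2 and Mmp23, and the fall was in Adamts8. Groups did not overlap for 13 members on the higher side and 1 on the lower side, against 30.0% of all genes in either direction. The median fold change was 0.17 over the 38 tested members, against 0.01 over all genes. It was 0.27 over the 24 members above background on every array, against 0.02 over the 9957 genes that met that condition.

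After 3 days of HFD, 2 members rose (Adamtsl3 and Mmp14) and 2 fell (Adamts9 and Mmp24), against 0.811% of all genes called higher and 1.53% lower. Groups did not overlap for 5 members on the higher and 4 on the lower side, against 18.5% of all genes. After 1 month of HFD, 11 members rose and 2 fell, against 9.51% of all genes called higher and 8.62% lower. The rises were in Adamtsl1, Mmp2, Adamts12, Adamtsl3, Mmp14, Adamtsl2, Timp2, Adamts16, Mmp3, Mmp9 and Mmp23, and the falls in Timp4 and Adamts9. Groups did not overlap for 16 members on the higher side and 5 on the lower side, against 33.9% of all genes in either direction. Among the 24 members above background on every array, 10 rose and 2 fell after 1 month, against 13.1% and 11.6% of the 9957 genes above background throughout. Of these 24, 6 rose in the PPARγ set, against 6.25%, while a member that passed the filter through a few arrays only had to differ between arrays.

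**Figure D1:**
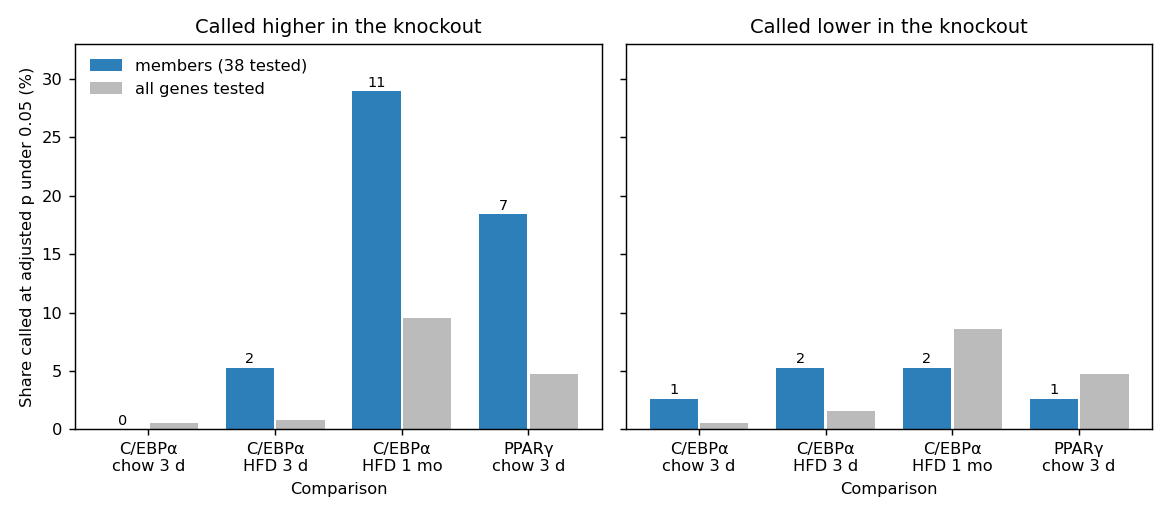
Share of genes called higher (left) and lower (right) in each knockout, in percent, for the 38 members tested (blue, with the number of members above each bar) and for all 14544 genes tested (grey). The blue bars stand highest for rises after 1 month of HFD (11 members) and in the PPARγ set (7 members).

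Over the 4 comparisons, 19 members were called at least once, 7 were called in 2 comparisons and 0 in 3 or more, against 23.6%, 4.93% and 1.13% of all genes. The PPARγ and 1 month lists shared 4 members, Adamtsl2, Mmp2, Mmp23 and Mmp3, all higher in both, which is 4 of 8 and 4 of 13. Over all genes, 47.1% of the PPARγ list and 24.5% of the 1 month list were shared in the same direction, so the members' shares lay near the background. The 3 day and 1 month HFD lists shared Adamts9, Adamtsl3 and Mmp14, each in the same direction, which is 3 of 4 and 3 of 13, against 87.1% and 11.3% over all genes. No control array was shared between sets. Across the 38 members, Pearson's r between fold changes was 0.72 for 3 days against 1 month of HFD, 0.61 for PPARγ against 1 month and 0.29 for PPARγ against C/EBPα on chow, against 0.58, 0.40 and 0.12 across all genes, as a description over genes that are not independent.

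**Figure D2:**
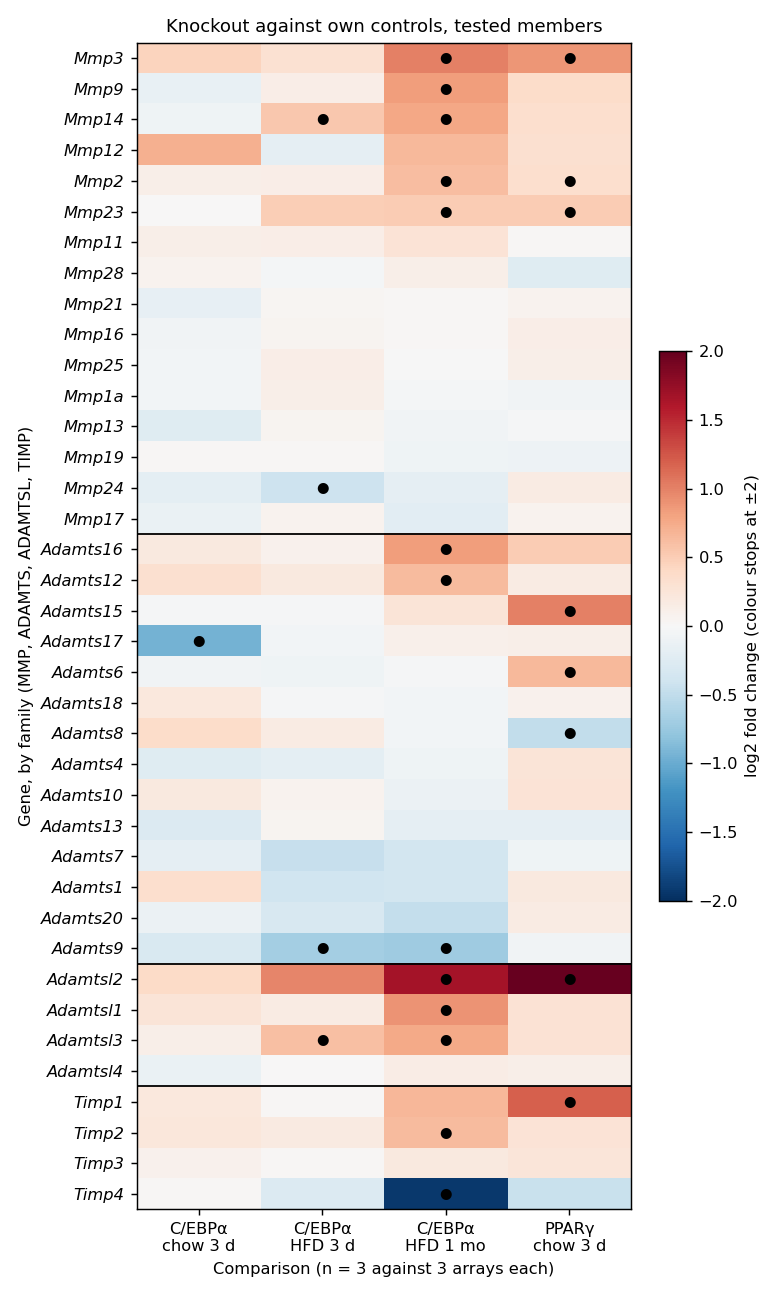
Log2 fold change of the 38 tested members (rows, ordered within each family by the 1 month HFD effect) in 4 knockout comparisons (columns, 3 against 3 arrays each); red is higher and blue lower in the knockout, colour stops at ±2 and black dots mark adjusted p under 0.05. Dots gather in the 1 month HFD column (13) and the PPARγ column (8), and Adamtsl2 and Timp4 have the deepest colours.

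Mmp2, Mmp14 and Timp2 form a known activation unit: membrane-anchored MMP14 with TIMP2 as a bridge cuts the MMP2 precursor, and active MMP2 (gelatinase A) cuts gelatin and basement membrane collagen. Mmp2 after 1 month of HFD read 12.76, 12.84 and 12.85 in the controls and 13.41, 13.48 and 13.41 in the C/EBPα knockouts. The knockout arrays were all higher with little spread, and Mmp2 rose by 0.62 ± 0.08 (limma adjusted p = 2.1e-05). The PPARγ set gave Mmp2 readings of 12.91, 12.79 and 13.04 in controls and 13.31, 13.30 and 13.16 in knockouts, a rise of 0.34 ± 0.08 (limma adjusted p = 0.0141) with no overlap. That call ended without control replicate 2 (adjusted p = 0.0949) or knockout replicate 1 (0.0578) or 2 (0.0613), and with only that set's arrays in the fit (0.0691). At 3 days of HFD the Mmp2 groups overlapped and the fold change was 0.13 ± 0.08, and in the chow C/EBPα set it was 0.11 ± 0.08.

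Mmp14 (MT1-MMP) read 9.97, 10.31 and 10.23 in controls and 10.83, 11.24 and 10.75 in knockouts after 1 month of HFD. All 3 knockout arrays lay above the controls, a rise of 0.77 ± 0.14 (limma adjusted p = 3.3e-04). After 3 days of HFD it read 10.54, 10.82 and 10.37 in controls and 11.34, 10.88 and 11.12 in knockouts. Groups were apart by a narrow margin there, and Mmp14 rose by 0.54 ± 0.14 (limma adjusted p = 0.0372). That call ended without control replicate 1 (adjusted p = 0.111) or 3 (0.215) or knockout replicate 1 (0.185) or 3 (0.113), in the fit of that set's arrays alone (0.227), when every probe was tested (0.0515) and with a replicate block (0.0898).

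Timp2, the inhibitor that also bridges MMP14 and MMP2, read 12.24, 12.43 and 12.58 in controls and 12.94, 13.21 and 12.99 in knockouts after 1 month of HFD. The groups did not overlap and Timp2 rose by 0.63 ± 0.12 (limma adjusted p = 7.1e-04). In the other 3 sets its fold changes lay between 0.18 and 0.27 and none was called. Over the 24 arrays, deviations from the control mean of the own set correlated between Mmp2 and Timp2 with r = 0.89 and between Mmp14 and Mmp23 with r = 0.89, as a description of arrays that share sets and knockouts. Mmp14 gave 0.80 with Mmp2 and 0.76 with Timp2. Pairs reaching outside the unit were as high, such as Adamtsl1 with Mmp2 (0.90) and Adamts12 with Timp2 (0.89), so this likeness was not particular to it.

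Mmp9 (gelatinase B, known from neutrophils and macrophages) read 6.04, 5.60 and 5.61 in controls and 7.15, 6.46 and 6.13 in knockouts after 1 month of HFD. Knockout replicate 3 lay just above the highest control, and Mmp9 rose by 0.83 ± 0.20 (limma adjusted p = 0.00542). Without knockout replicate 1 the change was 0.55, without background removal it was 0.38, and with only that set's arrays the adjusted p was 0.0595. Its fold change was 0.37 ± 0.20 in the PPARγ set, 0.14 ± 0.20 after 3 days of HFD and -0.15 ± 0.20 in the chow C/EBPα set, none of them called.

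Mmp3 (stromelysin-1), which cuts proteoglycans and fibronectin and activates other MMP precursors, read 9.41, 9.71 and 10.06 in controls and 10.24, 11.20 and 10.73 in knockouts after 1 month of HFD. The groups did not overlap, and Mmp3 rose by 1.00 ± 0.22 (limma adjusted p = 0.00235). For Mmp3, the PPARγ set read 9.81, 9.78 and 10.05 in controls and 10.96, 10.59 and 10.74 in knockouts. Every knockout array was higher, and the rise was 0.88 ± 0.22 (limma adjusted p = 0.0135), but the call ended without control replicate 1 (0.0514) or 2 (0.0643) or knockout replicate 1 (0.0620). The 2 effects differed by -0.12 (95% interval -0.76 to 0.53). The gene's other 2 probes gave 0.87 and 0.89 in the PPARγ set and 1.09 and 1.23 after 1 month, all called.

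Mmp3 lies in a cluster of MMP genes on mouse chromosome 9. For 6 of them a stretch is printed below, 5′ to 3′, from RefSeq windows on GRCm38.p6 of 250 bases before to 50 after each start. It runs from 110 bases before the start up to 11 bases before it. Capitals mark the AP-1 motif TGANTCA, which is its own reverse complement, and only windows that hold this motif were printed.
Mmp3, chr9:7445712-7445811, plus strand: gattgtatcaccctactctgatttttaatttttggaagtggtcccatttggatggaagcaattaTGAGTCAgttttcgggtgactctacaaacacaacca
Mmp1a, chr9:7464031-7464130, plus strand: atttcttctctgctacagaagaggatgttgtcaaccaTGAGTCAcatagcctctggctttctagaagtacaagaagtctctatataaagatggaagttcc
Mmp10, chr9:7502232-7502331, plus strand: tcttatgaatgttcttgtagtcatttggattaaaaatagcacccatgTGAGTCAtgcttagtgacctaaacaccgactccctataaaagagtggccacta
Mmp12, chr9:7347264-7347363, plus strand: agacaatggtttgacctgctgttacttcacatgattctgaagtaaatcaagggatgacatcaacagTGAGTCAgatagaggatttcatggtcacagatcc
Mmp13, chr9:7272404-7272503, plus strand: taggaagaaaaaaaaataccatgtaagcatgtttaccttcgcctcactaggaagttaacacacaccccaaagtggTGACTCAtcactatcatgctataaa
Mmp7, chr9:7691980-7692079, plus strand: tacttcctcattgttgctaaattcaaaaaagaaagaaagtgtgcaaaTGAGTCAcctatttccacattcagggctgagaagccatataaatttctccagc

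Windows were found for 32 of the 46 members, 35 in all because 3 genes had 2 starts. The AP-1 motif stood in 8 of those windows (22.9%), against 7.81% of all 32851 windows. All 8 belong to MMP genes on chromosome 9, the 6 above with Mmp1b and Mmp20, so they are neighbours and not independent cases, and the first base of the motif lay between 95 and 35 bases before the start. Mmp8 on the same chromosome had none in its window, and Mmp12 and Mmp7 each had another start whose window held none.

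Of these 8 genes, Mmp3 was called, Mmp1a (a mouse counterpart of interstitial collagenase), Mmp12 (macrophage elastase) and Mmp13 (a collagenase) were tested and not called, and the other 4 were below the filter. Mmp1a fold changes stayed between -0.07 and 0.11 in the 4 comparisons. Mmp13 gave -0.25 ± 0.21 in the chow C/EBPα set and between -0.07 and 0.05 elsewhere. A second Mmp13 probe of like brightness, above background on 23 arrays as the tested one was, read the other way in the chow set, at 0.51 ± 0.13 (adjusted p = 0.0567 when every probe was tested), so the direction for Mmp13 there depends on the probe. Mmp12 read 4.87, 5.78 and 5.87 in controls and 6.16, 6.45 and 6.03 in knockouts in the chow C/EBPα set, apart but not called at 0.71 ± 0.28 (limma adjusted p = 0.211). Its 1 month HFD fold change was 0.65 ± 0.28 (limma adjusted p = 0.123).

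The C/EBP palindrome TTGCGCAA was in none of the member windows and in 0.183% of all windows. The looser form TTNNGNAA, read on both strands, was in 25.7% of member windows and 40.7% of all. The direct repeat DR1, bound by PPARγ with RXR, was in none of the member windows and in 0.381% of all, with any base allowed at the fourth place of both repeats. These are letters in short windows, and they locate no binding site.

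Mmp23, a small membrane-tethered MMP, was called in both sets with most member calls. Its readings in the PPARγ set were 9.13, 9.0 and 9.12 in controls and 9.48, 9.81 and 9.48 in knockouts, a rise of 0.51 ± 0.15 (limma adjusted p = 0.0316) with no overlap. The call ended without control replicate 1 (0.0666), 2 (0.126) or 3 (0.0587) or knockout replicate 2 (0.174). After 1 month of HFD the rise was also 0.51 ± 0.15 (limma adjusted p = 0.0181), and that call ended without control replicate 1 (0.116) or knockout replicate 1 (0.0504) or 2 (0.129), or with only that set's arrays (0.0791). After 3 days of HFD it read 8.23, 8.38 and 8.04 in controls and 8.85, 8.66 and 8.62 in knockouts, apart but not called at 0.49 ± 0.15 (limma adjusted p = 0.0911), though called with array weights (0.0302).

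Mmp24, a membrane-type MMP known from neurons, read 8.88, 8.85 and 8.89 in controls and 8.47, 8.52 and 8.40 in knockouts after 3 days of HFD. Knockout arrays were all lower, a change of -0.41 ± 0.11 (limma adjusted p = 0.0436). Leaving out any 1 of the 6 arrays ended the call, with adjusted p from 0.0527 without knockout replicate 2 to 0.171 without knockout replicate 3. It was also lost when every probe was tested (0.0665), in that set's arrays alone (0.0986) and with a replicate block (0.0610). Its fold change was -0.18 ± 0.11 after 1 month of HFD and 0.16 ± 0.11 in the PPARγ set.

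The other 7 MMPs tested besides those on chromosome 9, Mmp11, Mmp16, Mmp17, Mmp19, Mmp21, Mmp25 and Mmp28, were not called in any comparison by their tested probes. Mmp11 (stromelysin-3) was nearest after 1 month of HFD, at 0.27 ± 0.11 with groups apart (limma adjusted p = 0.106). Mmp16, Mmp21 and Mmp25 were above background on 3 or 4 arrays of 24, so a fall from that level could not be seen. A rise could have been, and the 95% intervals of their fold changes reached at most 0.38 (Mmp16 in the PPARγ set). Because this scale understates the change of dim probes, those intervals do not limit how far the signal itself rose.

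Timp4, the inhibitor known for its adipose and heart expression, fell further than any other member in any set. In the 1 month HFD set it read 11.12, 11.16 and 10.92 in controls and 9.22, 8.97 and 9.21 in C/EBPα knockouts. The lowest control stood well above the highest knockout, and Timp4 fell 3.80-fold, by -1.93 ± 0.21 on the log2 scale (limma adjusted p = 1.3e-06). After 3 days of HFD the fold change was -0.27 ± 0.21 with groups overlapping, and on chow it was 0.02 ± 0.21.

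Timp4 in the PPARγ set read 9.77, 10.22 and 10.56 in controls and 9.51, 9.56 and 10.12 in knockouts. The groups overlapped and the change of -0.45 ± 0.21 was not called (limma adjusted p = 0.206). The effect after 1 month differed from that after 3 days of HFD by -1.66 (95% interval -2.28 to -1.04, limma adjusted p = 0.00454). The PPARγ effect differed from the 1 month effect by 1.47 (95% interval 0.85 to 2.10, adjusted p = 0.00436), and both differences stayed called without any single array of their sets.

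For Timp4 and Adamtsl2, the members with the largest fall and rise, and for Adamts17, the member called in the chow C/EBPα set, the sequence around the RefSeq start on GRCm38.p6 is printed 5′ to 3′ on the gene's strand. The first 2 run from 100 bases before the start to its first 50 transcribed bases, and the third covers 50 bases on each side. Capitals mark a match to TTNNGNAA or its reverse complement, found in the third.
Timp4, chr6:115252156-115252305, minus strand: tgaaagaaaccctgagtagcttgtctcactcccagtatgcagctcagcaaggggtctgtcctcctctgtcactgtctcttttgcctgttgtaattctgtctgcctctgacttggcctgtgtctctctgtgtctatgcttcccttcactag
Adamtsl2, chr2:27079279-27079428, plus strand: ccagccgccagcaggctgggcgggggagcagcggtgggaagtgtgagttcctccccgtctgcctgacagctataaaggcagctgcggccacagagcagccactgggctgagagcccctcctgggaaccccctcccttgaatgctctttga
Adamts17, chr7:66839685-66839784, plus strand: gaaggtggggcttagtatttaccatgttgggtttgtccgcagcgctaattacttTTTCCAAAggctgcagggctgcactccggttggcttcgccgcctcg
The full windows of Timp4 and Adamtsl2 held no match to any motif searched.

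**Figure D3:**
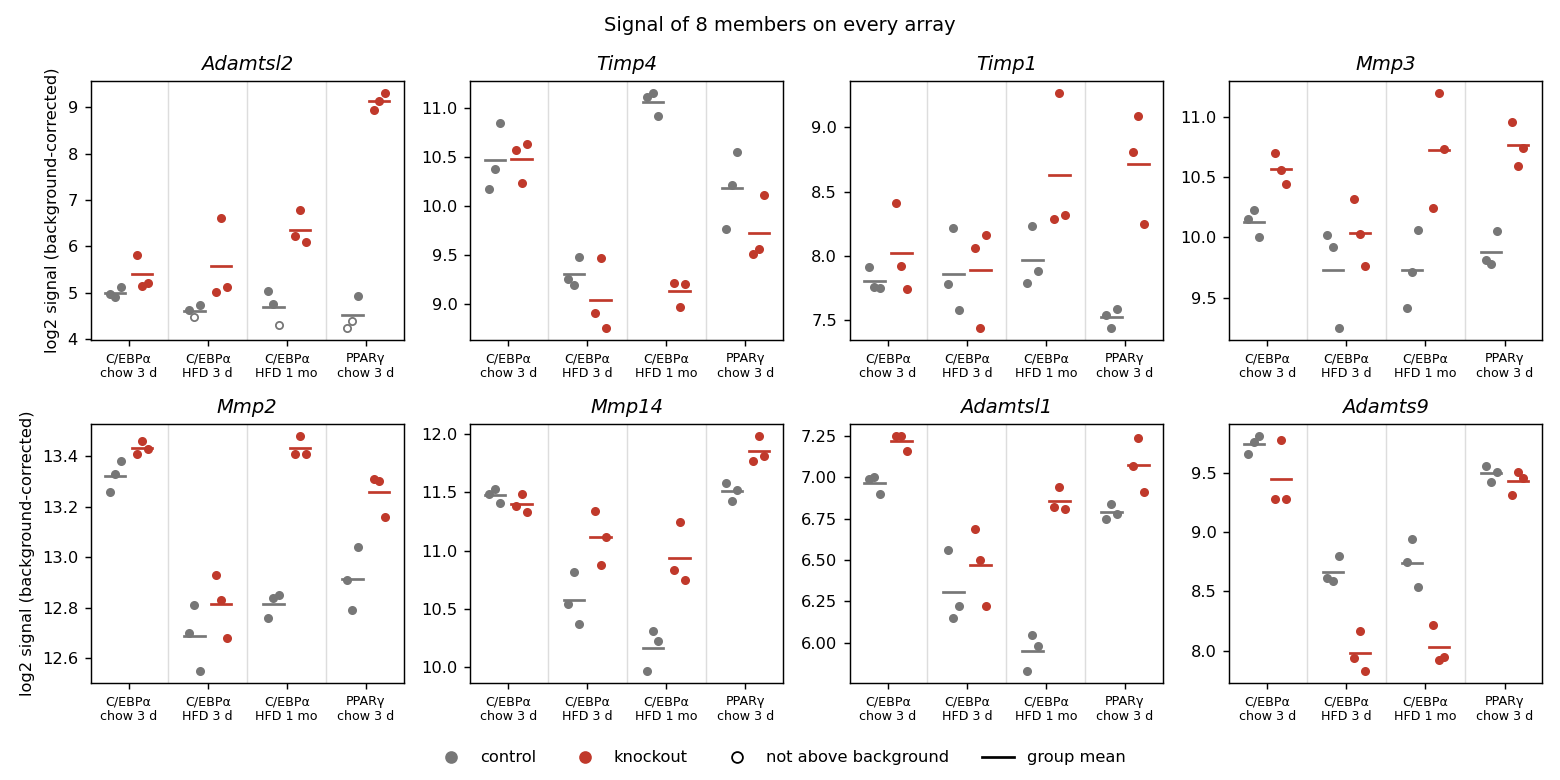
Background-corrected log2 signal of 8 members on each of the 24 arrays, by set, with grey points for controls, red points for knockouts, open points where the probe was not above background and lines at group means (n = 3). Adamtsl2 knockouts of the PPARγ set sit between 8.93 and 9.31 above controls of at most 4.92, and Timp4 separates after 1 month of HFD; sets were normalized separately, so levels of different sets are not comparable.

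Timp1, an inhibitor of most secreted MMPs that inflammatory signals are known to induce, read 7.54, 7.44 and 7.59 in controls and 8.81, 9.09 and 8.25 in knockouts of the PPARγ set. All knockout arrays were higher, though spread, and Timp1 rose 2.28-fold, by 1.19 ± 0.25 (limma adjusted p = 0.00447), with its second probe at 1.22. In the 1 month HFD set it read 7.79, 8.23 and 7.88 in controls and 8.29, 9.27 and 8.32 in knockouts. That change of 0.66 ± 0.25 was not called (limma adjusted p = 0.0816), while the second probe gave 0.76 and was called when every probe was tested (adjusted p = 0.0441), so the probes disagree on the call. Without knockout replicate 2 the first probe's change was 0.34, and without knockout replicate 1 it was 0.83 and called (0.0477).

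Timp3, the inhibitor bound to the matrix, read 11.82, 11.98 and 12.16 in controls and 12.26, 12.21 and 12.20 in knockouts of the PPARγ set. The groups did not overlap, but 0.24 ± 0.09 was not called (limma adjusted p = 0.122). Without control replicate 3 it was 0.32 and called (0.0469), and without control replicate 1 it was 0.15. Its fold changes in the other 3 sets were between 0.03 and 0.19. After 1 month of HFD the 4 inhibitors thus gave 1 rise (Timp2), 1 fall (Timp4) and 2 without a call, and in the PPARγ set 1 rise (Timp1) and 3 without a call.

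Among the ADAMTS proteases, Adamts9, which cuts versican and aggrecan, fell in both HFD sets of the C/EBPα knockout. After 3 days it read 8.61, 8.59 and 8.80 in controls and 7.94, 8.17 and 7.83 in knockouts, a change of -0.68 ± 0.13 (limma adjusted p = 0.00535). After 1 month it read 8.75, 8.94 and 8.54 in controls and 8.22, 7.92 and 7.95 in knockouts, a change of -0.71 ± 0.13 (limma adjusted p = 5.0e-04). Groups did not overlap in either set, and the 2 effects differed by -0.03 (95% interval -0.42 to 0.35). In a fit of the 3 day arrays alone the adjusted p was 0.0638. A dimmer second probe gave -0.60 and -0.56, both called.

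On chow, Adamts9 gave -0.30 ± 0.13 in the C/EBPα set (limma adjusted p = 0.250) and -0.07 ± 0.13 in the PPARγ set. The PPARγ effect differed from the 1 month effect by 0.64 (95% interval 0.26 to 1.03, limma adjusted p = 0.0485). That difference was no longer called without any 1 of 9 of the 12 arrays, with adjusted p of 0.0700 to 0.146, the exceptions being knockout replicate 1 of either set and control replicate 3 of the 1 month set. It was also lost with no filter on dim probes (0.0549), every probe tested (0.0648), a replicate block (0.105) or quantile normalization over all arrays (0.0571).

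Adamts17, a secreted protease linked to fibrillin microfibrils, read 5.46, 5.31 and 5.63 in controls and 4.58, 4.42 and 4.59 in knockouts of the chow C/EBPα set. The 3 knockout arrays were not above background, so on the background-corrected scale the gene was at least 1.56-fold lower, with a measured change of -0.94 ± 0.14 (limma adjusted p = 0.00192). Without background removal the change was -0.25, still called (0.0131), and with an offset of 50 it was -0.46, so its size is uncertain. With only that set's 6 arrays in the fit, the adjusted p was 0.0923. The dimmest genes spread more in that set (median SD 0.227, against 0.137 to 0.149 in the other sets), while the main fit pooled all sets. In the PPARγ set 1 of 3 control and 2 of 3 knockout arrays were above background, at 0.11 ± 0.14, and after 3 days of HFD no array was. The PPARγ effect differed from the C/EBPα effect on chow by 1.05 (95% interval 0.65 to 1.45, limma adjusted p = 0.00455), or by 0.26 without background removal (0.0348). With PPARγ controls this near background a fall there could hardly have shown. The difference therefore does not show that PPARγ loss spared Adamts17. The printed stretch of its promoter holds TTTCCAAA from the fifth transcribed base, a form present in 40.7% of all windows.

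Adamts15 and Adamts8 are both proteoglycan-cutting enzymes of the same subgroup, and they moved in opposite directions in the PPARγ set. Adamts15 read 6.06, 6.18 and 6.18 in controls and 7.28, 7.28 and 6.87 in knockouts. Its groups were far apart and it rose 2.00-fold, by 1.00 ± 0.19 (limma adjusted p = 0.00141). Without background removal the rise was 0.51, also called (5.5e-05). Adamts8 read 5.02, 4.86 and 4.62 in controls and 4.34, 4.38 and 4.28 in knockouts, which were not above background on any array. On the background-corrected scale it was at least 1.22-fold lower, with a measured change of -0.50 ± 0.14 (limma adjusted p = 0.0291). That call ended without control replicate 1 (0.137) or 2 (0.0983) or knockout replicate 1 (0.0706), 2 (0.0697) or 3 (0.0862), with an offset of 50 (-0.21, 0.0528), with a replicate block (0.0593) and without background removal (-0.13, 0.0692).

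In the chow C/EBPα set, Adamts15 gave -0.02 ± 0.19, and Adamts8 read 4.80, 4.67 and 4.77 in controls and 5.27, 4.81 and 5.23 in knockouts, with 2 of the 6 arrays above background (0.36 ± 0.14, limma adjusted p = 0.203). Without background removal that Adamts8 change was 0.09. The difference between the PPARγ and C/EBPα effects on chow was 1.02 for Adamts15 (95% interval 0.47 to 1.57, adjusted p = 0.0380) and -0.86 for Adamts8 (95% interval -1.27 to -0.44, adjusted p = 0.0227). The Adamts15 difference was lost without any 1 of 10 arrays (adjusted p 0.0542 to 0.10), all but C/EBPα control replicate 1 and PPARγ knockout replicate 3, and with array weights (0.0551) or weights per set (0.0584). It was 0.52 without background removal. The Adamts8 difference was lost without C/EBPα control replicate 2, C/EBPα knockout replicate 1 or 3, PPARγ control replicate 1 or 2, or PPARγ knockout replicate 3 (adjusted p 0.0505 to 0.0634). It was lost as well with a replicate block (0.0595) and without background removal (-0.21, 0.0544). No chow C/EBPα control array was above background for Adamts8, so a fall in that set could not be seen. The Adamts8 difference therefore does not show that a fall was particular to the PPARγ set.

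Adamts6, which acts on fibrillin microfibrils, read 5.0, 5.23 and 5.12 in controls and 5.54, 5.76 and 6.00 in knockouts of the PPARγ set. The groups did not overlap, and it rose by 0.65 ± 0.16 (limma adjusted p = 0.0104). The call ended without control replicate 1 (0.0514) or knockout replicate 3 (0.0616), and without background removal the rise was 0.20, still called (0.0110). In the 3 C/EBPα comparisons its fold changes lay between -0.09 and -0.02.

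Adamts12, which cuts cartilage oligomeric matrix protein, read 9.64, 9.87 and 9.79 in controls and 10.48, 10.50 and 10.24 in knockouts after 1 month of HFD. Every knockout array was higher, and it rose by 0.64 ± 0.10 (limma adjusted p = 8.2e-05). On chow without C/EBPα it read 10.40, 10.31 and 10.38 in controls and 10.63, 10.70 and 10.72 in knockouts, apart but not called at 0.32 ± 0.10 (limma adjusted p = 0.112).

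Adamts16 read 5.28, 4.89 and 4.71 in controls and 6.16, 5.69 and 5.55 in knockouts after 1 month of HFD. It rose by 0.84 ± 0.17 (limma adjusted p = 0.00155) with no overlap, or by 0.26 without background removal (0.00240). Its PPARγ set readings were 5.47, 5.53 and 5.54 in controls and 6.07, 6.17 and 5.82 in knockouts. These groups were apart as well, but 0.51 ± 0.17 was not called (limma adjusted p = 0.0723). The change was 0.18 without background removal. In 5 of the 10 alternatives that kept all arrays of that set it was called, with adjusted p from 0.0272 in the fit of that set's arrays alone to 0.0477 without background removal, so this call depends on the processing.

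Adamts20, a versican-cutting protease, read 5.21, 4.51 and 4.87 in controls and 4.38, 4.51 and 4.26 in knockouts after 1 month of HFD, with no knockout array above background and a change of -0.48 that was not called (limma adjusted p = 0.0616). Without background removal the change was -0.13, also not called (limma adjusted p = 0.0817). It was called with array weights (0.0311), weights per set (0.0408) or quantile normalization over all arrays (0.0322), and without control replicate 2 (-0.66, 0.0154), while without control replicate 1 it was -0.31. The remaining 6 ADAMTS genes tested, Adamts1, Adamts4, Adamts7, Adamts10, Adamts13 and Adamts18, were not called in any comparison, and their fold changes ranged from -0.46 (Adamts7 after 3 days of HFD) to 0.34 (Adamts1 in the chow C/EBPα set).

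Adamtsl2 had the largest change of any member. Its protein binds fibrillin and latent TGF-β binding proteins and is known to restrain TGF-β signalling. Without PPARγ the gene rose from near background: the arrays read 4.24, 4.38 and 4.92 in controls, of which 1 was above background, and 8.93, 9.13 and 9.31 in knockouts. The groups were separated by more than any other member's, at 4.51 ± 0.36 against 9.13 ± 0.19 (SD, n = 3) and a change of 4.61 ± 0.30 (limma adjusted p = 5.7e-09). Because 2 control arrays were not above background, the size of that rise is uncertain: it was 2.47 without background correction.

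Adamtsl2 after 1 month of HFD read 5.03, 4.75 and 4.31 in controls and 6.21, 6.78 and 6.09 in C/EBPα knockouts, with control replicate 3 not above background. The knockouts were all higher, and it rose by 1.66 ± 0.30 (limma adjusted p = 5.1e-04), or by 0.57 without background removal (0.00158). After 3 days of HFD it read 4.62, 4.47 and 4.73 in controls and 5.02, 6.60 and 5.13 in knockouts. Knockout replicate 2 stood apart from the other two, and the change of 0.98 ± 0.30 was not called (limma adjusted p = 0.113), and it was 0.47 without that array and 0.32 without background removal. On chow it read 4.97, 4.90 and 5.12 in controls and 5.81, 5.15 and 5.21 in knockouts (0.39 ± 0.30, not called).

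The PPARγ effect on Adamtsl2 exceeded the C/EBPα effect on chow by 4.22 (95% interval 3.32 to 5.12, limma adjusted p = 9.3e-06). It exceeded the 1 month HFD effect by 2.95 (95% interval 2.05 to 3.85, limma adjusted p = 1.7e-04). Both differences held without any single array of their sets, and without background removal they were 2.37 and 1.90. The genes whose deviations over the 24 arrays were most like those of Adamtsl2 were Gas6 (r = 0.94), Crispld2 (0.91) and Angptl7 (0.91). For Timp4 they were Glb1l2 (r = 0.95), Syp (0.94) and Bmp3 (0.94), for Adamts9 Tmem87b (0.89), Syde1 (0.89) and Nnmt (0.88), and for Adamts17 Meox2 (0.89), Erg (0.85) and Hyi (0.85). Erg was above background only on the 3 controls of the chow C/EBPα set and on 1 PPARγ knockout array. Its r with Adamts17 thus comes largely from readings near background. Gas6 rose after 1 month of HFD (1.19 ± 0.12), where Adamtsl2 rose too. Crispld2 (0.15 ± 0.19) and Angptl7 (0.11 ± 0.30) were not called there. Their r with Adamtsl2 comes largely from the PPARγ set, where they rose by 1.53 ± 0.19 and 4.38 ± 0.30.

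Adamtsl1 (punctin) read 5.83, 6.05 and 5.98 in controls and 6.82, 6.94 and 6.81 in knockouts after 1 month of HFD. The arrays of each group lay close together, and it rose by 0.90 ± 0.12 (limma adjusted p = 9.4e-06), or by 0.43 without background removal (1.6e-05). This effect exceeded that after 3 days of HFD by 0.75 (95% interval 0.40 to 1.09, limma adjusted p = 0.0182), a difference lost without control replicate 1 of the 3 day set (0.0683), control replicate 1 of the 1 month set (0.0631) or knockout replicate 2 of the 1 month set (0.0583), and in the 12 arrays of both sets alone (0.101). Without background removal it was 0.36. The PPARγ effect was smaller than the 1 month effect by a difference of -0.62 (95% interval -0.96 to -0.27, adjusted p = 0.0315). That difference was lost without any 1 of 9 of the 12 arrays (adjusted p 0.0505 to 0.0909), all but PPARγ knockout replicate 2 and, of the 1 month set, control replicate 2 and knockout replicate 1, and without background removal (-0.27, 0.0571).

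Adamtsl3 (punctin-2) read 6.32, 6.37 and 6.42 in controls and 7.25, 7.07 and 7.09 in knockouts after 1 month of HFD. It rose by 0.76 ± 0.12 (limma adjusted p = 1.5e-04) with groups far apart, or by 0.41 without background removal. After 3 days it read 6.09, 6.42 and 6.35 in controls and 6.84, 6.74 and 7.05 in knockouts, a rise of 0.60 ± 0.12 (limma adjusted p = 0.0101). The 3 day call ended without control replicate 1 (0.0674) or knockout replicate 3 (0.0761), and in that set's arrays alone (0.110), and without background removal the rise was 0.31. Adamtsl4, which binds fibrillin, gave fold changes between -0.14 and 0.15 and was not called.

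For several members with a second probe, the dimmer probe was not called: this held for Adamts12, Adamtsl3, Mmp14 and Adamts16 after 1 month of HFD, Adamts17 in the chow C/EBPα set, and Adamts6 in the PPARγ set. Of these, the second probe of Adamts17 gave 0.09 against -0.94, and that of Adamtsl3 -0.03 against 0.76, on 3 and 16 arrays above background. The other 2 probes of Mmp24 gave 0.32 and 0.12 after 3 days of HFD, against -0.41 for the tested probe, and were not called. Mmp28 was the reverse case: its tested probe gave 0.12 ± 0.17 after 1 month of HFD, and its dimmer second probe -0.76 ± 0.15, called when every probe was tested (adjusted p = 0.00137).

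Of the 4 differences between effects that were tested, PPARγ against C/EBPα on chow called 4 members, against 3.07% of all genes. The 1 month against the 3 day HFD effect called 3 members (Adamtsl1, Timp4 and Mmp2), against 1.80% of all genes. The PPARγ against the 1 month effect called 4 members, against 4.89%. The 3 day HFD against the chow effect of C/EBPα loss called 0 members by limma, against 0.0688% of all genes. In that contrast 6 members had an unadjusted p under 0.05, a level not counted over all genes. For Mmp2, the 1 month effect exceeded the 3 day effect by 0.49 (95% interval 0.24 to 0.74, adjusted p = 0.0364), lost without any 1 of 10 of the 12 arrays (0.0527 to 0.109), all but control replicate 3 and knockout replicate 1 of the 3 day set. It was lost as well when every probe was tested (0.0613), in the 12 arrays of both sets alone (0.116) and with a replicate block (0.103).

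Genes that activate or anchor these proteases were read from the same fit. Of 7 tested genes of plasminogen activation, a route to active MMPs, 3 rose in the PPARγ set: Plat (tissue plasminogen activator, 0.46 ± 0.10), and the plasminogen-binding pair S100a10 (0.63 ± 0.15) and Anxa2 (0.32 ± 0.09). After 1 month of HFD, Plat (0.58 ± 0.10) and S100a10 (0.43 ± 0.15) rose and Anxa2 fell (-0.36 ± 0.09). In the chow C/EBPα and 3 day HFD sets limma called 0 of the 7, with 0 and 2 at an unadjusted p under 0.05.

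Of 10 tested activators and cell surface regulators, Reck, a membrane-anchored MMP inhibitor, rose in the PPARγ set (0.37 ± 0.11) and after 1 month of HFD (0.57 ± 0.11). Lcn2, which binds MMP9, rose by 2.13 ± 0.22 in the PPARγ set and changed by -1.22 ± 0.22 after 3 days of HFD. Lrp1, an endocytic receptor for protease complexes, rose in the PPARγ set (0.52 ± 0.13), and the proprotein convertase Pcsk6 rose after 1 month (1.27 ± 0.31). Of 17 tested ADAM, astacin and related genes, 7 rose after 1 month, among them Pcolce (1.01 ± 0.16), an enhancer of procollagen processing, and Bmp1 (0.69 ± 0.14), the procollagen C-proteinase. Both also rose in the PPARγ set, by 0.81 ± 0.16 and 0.52 ± 0.14. Adam10 was the 1 gene of that list called lower, on chow without C/EBPα (-0.59 ± 0.08). It was not above background on any array of the PPARγ set or of either HFD set. Adam10 thus passed the filter through the chow C/EBPα set alone, and a fall elsewhere could not be seen.

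Partners and substrates moved too. Of 19 tested proteoglycan and fibrillin partners, Comp, a substrate of ADAMTS12, rose by 1.95 ± 0.23 in the PPARγ set, 1.81 ± 0.23 after 3 days and 2.02 ± 0.23 after 1 month of HFD. Thbs2 (thrombospondin-2) rose in the same 3 comparisons, by 1.13 ± 0.12, 0.76 ± 0.12 and 1.73 ± 0.12. In the PPARγ set 5 of the 19 rose and 0 fell, including Vcan (versican, 0.63 ± 0.16), and after 1 month 4 rose and 2 fell. Of 15 tested collagens, 6 rose and 4 fell after 1 month. The fibrillar Col3a1 (1.08 ± 0.20) and Col1a2 (0.96 ± 0.20) were among those that rose, and the 4 that fell were Col4a1 (-0.67 ± 0.11) and Col4a2 (-0.62 ± 0.12) of basement membranes, Col15a1 (-0.90 ± 0.16) and Col18a1 (-0.46 ± 0.11). In the PPARγ and 3 day HFD sets limma called 0 of the 15, with 5 and 4 at an unadjusted p under 0.05.

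Markers of several cell types were called in the sets with most member calls, and some marker lists also shifted in the chow C/EBPα set. All 9 tested adipocyte markers fell after 1 month of HFD, and per array the list's mean deviation from the controls was -1.01 to -0.82 in knockouts against -0.05 to 0.07 in controls. In the same set 7 of 9 macrophage markers rose (0.62 to 1.16 against -0.10 to 0.12), 6 of 8 fibroblast and progenitor markers rose (0.50 to 0.66 against -0.06 to 0.04), and 4 of 5 mast cell markers rose (0.96 to 1.21 against -0.10 to 0.15). In that set 3 of 6 endothelial markers fell.

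Of 9 adipocyte markers, 8 fell in the PPARγ set (-0.82 to -0.76 against -0.01 to 0.01). There 2 of 9 macrophage markers rose, Cd14 and Mrc1 (list deviation 0.46 to 0.62 against -0.03 to 0.02), and 2 of 8 fibroblast and progenitor markers rose, Dpp4 and Lum (0.19 to 0.38 against -0.10 to 0.13). In the chow C/EBPα and 3 day HFD sets 1 and 2 adipocyte markers fell, and 0 and 1 macrophage markers rose. In that chow set, where 1 member was called, the mast cell list stood higher in knockouts (0.40 to 0.55 against -0.09 to 0.09). The neutrophil list stood lower there (-0.47 to -0.39 against -0.24 to 0.13), though limma called 0 genes of either list. The part of these marker shifts in the member results was not tested.

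**Figure D4:**
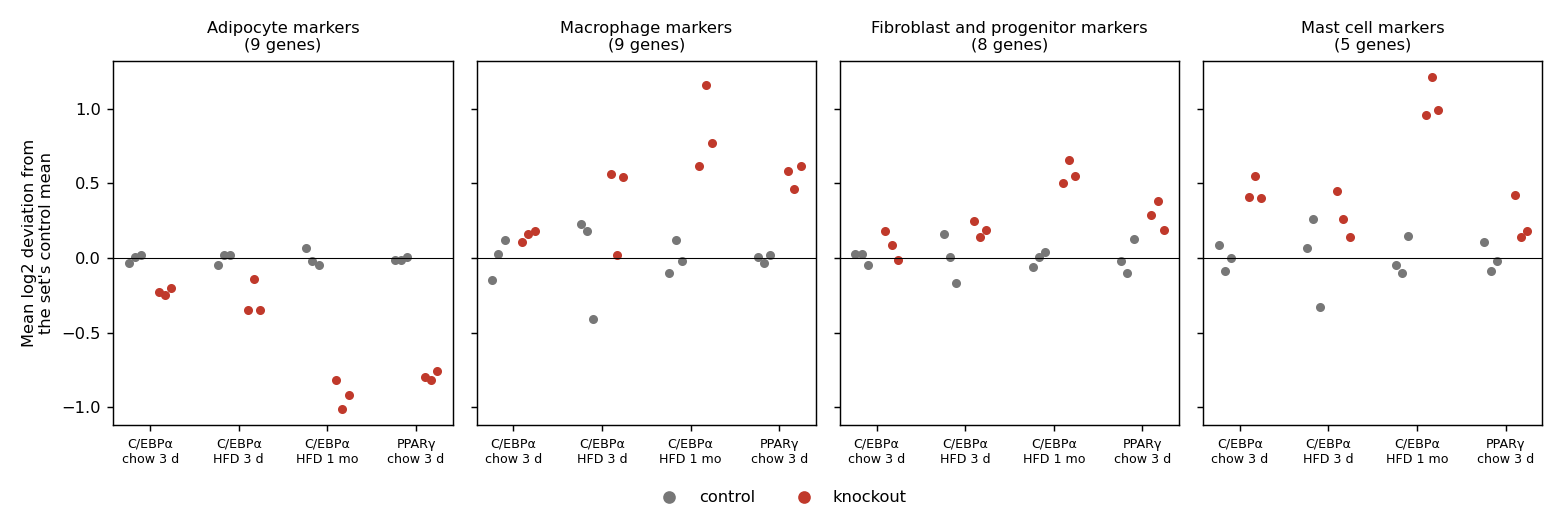
Mean log2 deviation of 4 marker lists from the control mean of the own set, 1 point per array, grey for controls and red for knockouts. Adipocyte markers are lowest after 1 month of HFD (-1.01 to -0.82) and in the PPARγ set (-0.82 to -0.76), and macrophage, fibroblast and mast cell markers are highest after 1 month of HFD.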

How the data were processed

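Per the labels' protocols, Trizol and RNeasy columns gave total RNA from subcutaneous fat, an Ambion MessageAmp kit turned it into biotin-cRNA, and Illumina arrays measured it. The deposited table holds 1 linear intensity per probe and array (45281 probes, 24 arrays). The sources used here name no scanner software, background step or normalization. The values show that the authors quantile-normalized each set of 6 arrays separately and left the background in. A second deposited table names its 96 columns of per-array values by chip position and was not used.

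Groups were taken from sample titles, since controls carry the knockout's name in the genotype field. Per set, the background was the mode of the log2 intensities and its SD came from the lower side. Background was removed with limma's normexp, 16 was added, and log2 was taken. A probe was kept (30257) if above background, at 5% false positives, on at least 3 arrays; a probe with 1 gene symbol named its gene (34885 probes; 18 had several symbols and 10378 were not listed), and the brightest probe stood for the gene. limma 3.58.1 in R 4.3.3 fitted 8 group means over 24 arrays (lmFit, eBayes, two-sided, Benjamini-Hochberg over 14544 genes), with 4 knockout effects and 4 differences between effects as contrasts. A fold against a group with every array not above background is a bound set by the detection limit, taken from group means. It is not a confidence limit. The fit was tested on simulated data. The number of arrays limits the precision.

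Every member could be named: called members with the smallest adjusted p, up to 12 a comparison, with each array's value, and the 2 nearest that were not called. Other lists and cell type markers were named by smallest adjusted p. Members, lists and tests were chosen with earlier results of these data known. Alternatives changed the background step, offset (50), filter (6 arrays or none), probes, arrays in the fit, replicate block, weights, normalization and arrays left out. Promoter windows came from RefSeq (GRCm38.p6); the files name no genome build. Protein motif counts were not run.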

Additional observations from a re-analysis of the deposited data

Results flagged for a closer look

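Each value here is a difference between 2 knockout effects, on the log2 scale, that passed limma's test of the difference itself. The PPARγ effect minus the C/EBPα effect on chow was 4.22 for Adamtsl2, 1.05 for Adamts17, 1.02 for Adamts15 and -0.86 for Adamts8. For Adamts17 the PPARγ controls, and for Adamts8 the C/EBPα controls, were near background, so a fall there could hardly have shown. The C/EBPα effect after 1 month of HFD minus that after 3 days was 0.75 for Adamtsl1, 0.49 for Mmp2 and -1.66 for Timp4. The PPARγ effect minus the 1 month HFD effect was 2.95 for Adamtsl2, 1.47 for Timp4, 0.64 for Adamts9 and -0.62 for Adamtsl1. The contrast of PPARγ with 1 month of HFD also differs in the deleted factor, diet, time and age, which cannot be told apart. In each of these sets at least 1 adipocyte marker fell in the knockout, by differing amounts, and the part of that in these differences was not tested.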

How the results depend on the processing

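The 45 member results recomputed here, those called and the 2 nearest that were not in each knockout comparison and those called in the differences, kept their direction in all 786 alternative values, each read through the tested probe. Other probes of some genes, among them Mmp13, Mmp14, Mmp24, Mmp28, Adamts17 and Adamtsl3, gave the opposite sign in at least 1 set, and members outside these results were not recomputed. Without background removal 22 of the 45 moved by over 1.5 times, and 11 did so with an offset of 50, but in no other alternative that kept all arrays of the sets. The member counts kept within 1.5 times their value except as follows. With only a set's own arrays in the fit, 0 members were called on chow without C/EBPα (1 over all arrays) and 0 after 3 days of HFD (4), and 1 differed between 1 month and 3 days (3). That chow fit called 1 gene over the whole array, against 157 from all arrays. Testing every probe left 2 calls after 3 days of HFD. Leaving out 1 array gave 1 to 1 calls in the chow C/EBPα set, 4 to 9 in the PPARγ set, 1 to 4 after 3 days and 12 to 14 after 1 month of HFD. For differences it gave 2 to 4 (PPARγ against C/EBPα on chow), 0 to 0 (3 days of HFD against chow), 1 to 3 (1 month against 3 days) and 2 to 4 (PPARγ against 1 month). The lowest PPARγ count came without control replicate 1 or 2, and the lowest 3 day count without control replicate 1 or knockout replicate 3.

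The replicate numbers did not pair the samples, since correlations of same-numbered arrays ran from -0.26 to 0.10. With the replicate number as a block, 2 members were called after 3 days of HFD, 7 in the PPARγ set, 1 in the chow C/EBPα set and 13 after 1 month. Few arrays, and dim probes such as those of Adamts8, Adamts17 and Adamts20, limit what could be measured.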

Other observations

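Markers of other cell types moved less evenly. After 1 month of HFD the neutrophil list gave 1 rise (Retnlg, 1.95 ± 0.24) and 2 falls (S100a8, -1.67 ± 0.47, and Elane, -0.52 ± 0.14) among 7 genes tested. In the PPARγ set Camp was the 1 neutrophil gene that rose, at least 1.88-fold on the background-corrected scale. Of 5 mast cell markers in that set, Cpa3 rose (0.53 ± 0.15) and Kit fell (-0.67 ± 0.15). No lymphocyte, epithelial or skeletal muscle marker was called in any comparison by limma. The 5 muscle markers spread widely between arrays, with list deviations from -2.40 in a PPARγ knockout to 2.27 in a control of the 3 day HFD set. In 1 knockout array of the 3 day HFD set the 5 lymphocyte markers stood 1.92 above the control mean.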
